A study of Mus musculus with 12 samples.

Results

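The 34 genes described here encode enzymes, membrane proteins and regulators of the lysosome. They were chosen by name, and all 34 were among the 23474 genes of the expression table of epididymal white adipose tissue (eWAT). They comprise 7 cysteine cathepsins, 3 other proteases, 6 membrane proteins, 8 glycosidases, 3 activator proteins, 4 lipid hydrolases and 3 transcription factors. The libraries came from male C57BL/6J mice aged 17 weeks, after 12 weeks on one of 4 diets that began at an age of 5 weeks. The ND group received a normal diet and the HFD group a high-fat diet. The GT group received the HFD with 0.25% (w/w) of an ethanol extract of green tea, and the TJ group the HFD with 3% (w/w) of the herbal medicine Taeeumjowuitang (TJ). The GT and TJ groups therefore shared the HFD itself, and the labels name no genetic change in any group. Each group had 10 mice, and each of its 3 libraries was taken to be 1 mouse, which the study's methods state for the HFD and TJ groups and the labels do not spell out for ND and GT. Whole tissue was sequenced, so each value is a mixture over all cell types of the depot. In such bulk samples, fewer cells of a type and less RNA per cell cannot be told apart.

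The lysosome is the acidic compartment in which cells break down proteins, glycans and lipids that arrive by endocytosis, phagocytosis and autophagy. Cathepsins cut proteins, glycosidases remove sugars from glycoproteins and glycolipids, and activator proteins present lipids to the hydrolases. The related factors Tfeb, Tfe3 and Mitf bind a short E-box motif that lies near the start of many lysosomal genes. In adipose tissue, lysosomes serve lipid turnover in adipocytes, and they are abundant in macrophages, which take up lipid and debris from dying adipocytes.

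Promoters were available for 31 of the 34 genes in a RefSeq table of the mouse build GRCm38.p6, which holds 250 bases before and 50 bases after the start of each transcript. They were searched for the E-box core CACGTG, a palindrome that reads alike on both strands. The core was present in the promoters of 9 genes (Ctsa, Ctsd, Ctsl, Gaa, Gla, Glb1, Lamp1, Mcoln1 and Naglu), against 8.09% of all 27025 genes in the table. The longer TCACGTGA, which contains the core, was present for 4 genes (Ctsa, Ctsd, Gla and Mcoln1), against 1.12% of all genes. With a G before and a C after these 8 letters, as in the motif known as the CLEAR element, it was present in 0 of the 31 genes and in 0.370% of all genes. The Lamp1 promoter is shown because it held the core 4 times, beginning 61, 45, 28 and 15 bases before the start. The Glb1 promoter is shown as one with a single copy, 48 bases before its RefSeq start, and the Lipa promoter is shown because Lipa had the lowest fold change under TJ and no copy of the core. Lamp1 (chr8:13158911-13159160) and Glb1 (chr9:114400828-114401075) lie on the plus strand and Lipa (chr19:34527475-34527724) on the minus strand. Each sequence runs 5′ to 3′ up to the first base of the gene in GENCODE, which for Glb1 lies 2 bases before the RefSeq start, with the core in capitals.
Lamp1: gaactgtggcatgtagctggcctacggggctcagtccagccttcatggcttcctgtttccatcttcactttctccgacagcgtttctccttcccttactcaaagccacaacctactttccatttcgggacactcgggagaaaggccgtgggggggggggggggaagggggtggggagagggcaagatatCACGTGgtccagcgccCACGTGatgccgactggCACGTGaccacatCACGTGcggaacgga
Glb1: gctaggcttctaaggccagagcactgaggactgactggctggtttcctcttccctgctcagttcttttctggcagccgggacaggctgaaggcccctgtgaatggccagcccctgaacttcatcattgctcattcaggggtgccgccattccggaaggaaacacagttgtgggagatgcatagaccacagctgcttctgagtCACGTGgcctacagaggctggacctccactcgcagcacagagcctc
Lipa: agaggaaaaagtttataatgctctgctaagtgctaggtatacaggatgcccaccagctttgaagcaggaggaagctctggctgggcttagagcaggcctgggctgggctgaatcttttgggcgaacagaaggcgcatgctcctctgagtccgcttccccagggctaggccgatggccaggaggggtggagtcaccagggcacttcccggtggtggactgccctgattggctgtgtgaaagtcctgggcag
The letters describe these windows only. The median log2 fold change of TJ against HFD was −0.63 over the 9 genes with the core and −0.73 over the 22 genes without it.

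Expression was given as FPKM, fragments per kilobase of transcript scaled to the mapped fragments of the library, so levels can be set beside each other between genes. Over all genes, the FPKM of each library came to a total of 527904 to 725245, except in ND replicate 1, where the total was 1002770. That library stood apart. In it, 10 germ cell markers summed to 99280 FPKM, 10 epididymis markers to 18628 FPKM and 17 adipocyte markers to 4702 FPKM, against at least 23831 FPKM of adipocyte markers in each other library. HFD replicate 1 and ND replicate 3 also held 2088 and 3055 FPKM of germ cell markers, and HFD replicate 2 held 1277 FPKM of epididymis markers. ND replicate 1 had the lowest value of the ND group for 27 of the 34 genes, as it did for 52.0% of the 13935 genes that averaged 1 FPKM or more over all libraries. The main values of the comparison with the ND group are therefore given with and without it. All 17 adipocyte markers were detected in all 12 libraries.

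The HFD group was compared with the ND group to ask how the diet alone changed these genes. Expression was higher in the HFD group for all 34 genes, and most for the macrophage glycoprotein Cd68, the cathepsins Ctss and Ctsk, the acid lipase Lipa and the glycosidases Gusb and Gla. A gene was called at a limma Benjamini-Hochberg adjusted p-value under 0.05 over all tested genes and a fold change of at least 1.5, on log2(FPKM + 1). By this rule 4 genes (Cd68, Ctsk, Ctss and Gla) were significantly higher in the HFD group, against 1.73% of all 14430 genes tested. None of the 34 was lower, against 0.0416% of all genes. The median log2 fold change was 1.76 over the 34 genes and 0.07 over all genes tested. Without ND replicate 1, 25 genes were significantly higher, against 11.0% of 13661 genes, and the median was 1.37 against −0.02. The other 9 genes were Ctsc, Gaa, Lamp2, Mcoln1, Neu1, Ppt1, Scarb2, Smpd1 and Tfe3. Every HFD library lay above every ND library for 32 genes, against 20.5% of all genes, and Gaa and Gm2a were the exceptions. With the replicate number as a block, as an alternative fit, 0 of the 34 and 0 of all 14430 genes were called. In that fit 21 of the 34 had an unadjusted p-value under 0.05, against 15.5% of all genes. The same count without the block was 23, against 11.6% of all genes. With any single library other than ND replicate 1 left out, 0 were called, with 17 to 26 at an unadjusted p-value under 0.05 (5.79% to 26.2% of all genes), and at most 0.165% of all genes were called higher.

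**Figure D1:**
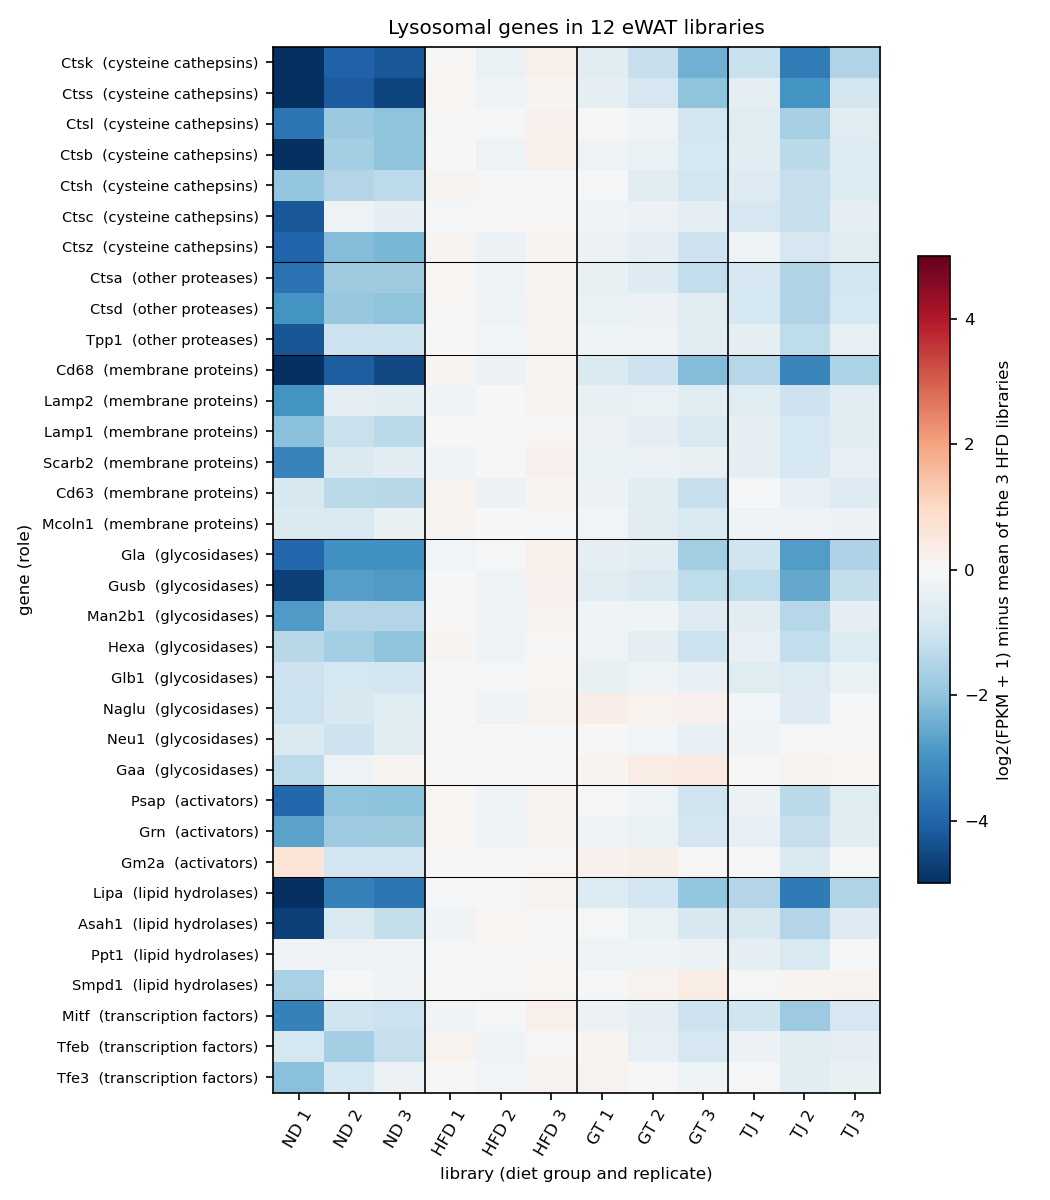
Heat map of the 34 lysosomal genes (rows, grouped by role) in the 12 eWAT libraries (columns), coloured by log2(FPKM + 1) minus the mean of the 3 HFD libraries, with the colours limited to −5 and 5. The ND columns are the lowest for most rows, with ND replicate 1 below the other two, and TJ replicate 2 and GT replicate 3 are the lowest of their groups for 29 and 31 of the 34 genes.

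The TJ group was compared with the HFD group to ask how the herbal medicine changed expression in mice on the same diet. Of the 34 genes, 32 had a lower mean log2 value under TJ, and the lowest shares of the HFD level were 26.3% for Lipa, 26.6% for Cd68, 29.6% for Ctsk, 29.7% for Gla and 33.5% for Gusb. In limma, 12 genes (Asah1, Cd68, Ctsa, Ctsc, Ctsd, Ctsh, Gla, Gusb, Lamp1, Lamp2, Lipa and Mitf) were significantly lower in the TJ group, against 11.1% of all 12807 genes tested. None of the 34 was significantly higher, against 7.41% of all genes, and 26 had an unadjusted p-value under 0.05, against 41.4% of all genes. The beta-galactosidase gene Glb1 had an adjusted p-value of 0.043 in limma, but its fold change was under 1.5. The median log2 fold change was −0.75 over the 34 genes and −0.14 over all genes tested. Every TJ library lay below every HFD library for 27 genes, against 31.4% of all genes. The TJ mean was under 50% of the HFD mean for 9 genes and under 80% for 28, counts that were not made over all genes. Median-of-ratios scaling moved the median of all genes by 0.12, and relative to that median the 34 genes lay at −0.61 as deposited, −0.59 after this scaling and −0.93 after quantile normalization. With median-of-ratios scaling all genes called went from 949 higher and 1417 lower to 1285 higher and 1082 lower, and quantile normalization gave 1543 higher and 1151 lower. These fits called 10 and 21 of the 34 genes lower, against 8.45% and 8.99% of all genes. Without the filter or with all 12 libraries in one fit, 0 of the 34 were called lower, against 0.145% and 0 of all genes. With any HFD library or TJ replicate 1 left out, 0 of the 34 genes and 0 of all genes were called, and 16 to 26 of the 34 had an unadjusted p-value under 0.05, against 29.0% to 38.2% of all genes. Without TJ replicate 3, 19 of the 34 genes were called lower, against 16.8% of all genes.

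**Figure D2:**
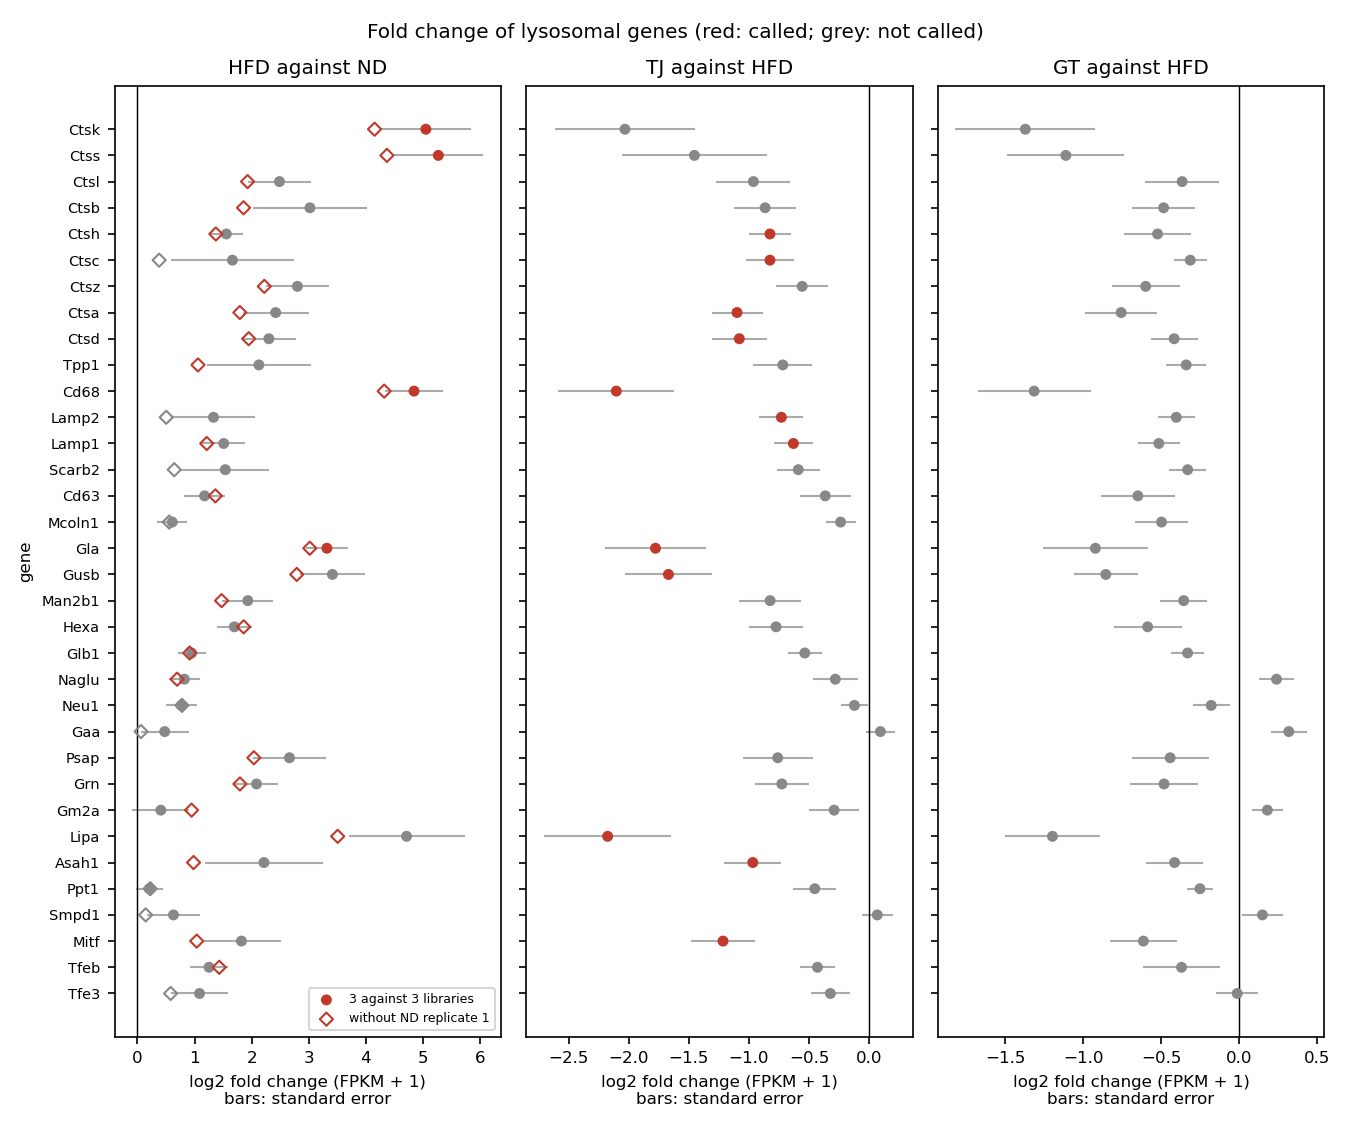
Log2 fold change (horizontal axis, on FPKM + 1) of the 34 genes in HFD against ND, TJ against HFD and GT against HFD, with bars for the standard error, red for called genes and open diamonds for the fit without ND replicate 1. All values lie above 0 for HFD against ND, 32 lie below 0 for TJ against HFD with 12 called, and 30 lie below 0 for GT against HFD with 0 called.

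The GT group was compared with the HFD group in the same way. In limma, 0 of the 34 genes were significantly lower and 0 significantly higher, against 1.81% and 1.83% of all 12766 genes tested, and 24 had an unadjusted p-value under 0.05, against 29.3% of all genes. This count of 24 was 13 with median-of-ratios scaling (27.8% of all genes), 8 without HFD replicate 3 (20.8%), 14 without HFD replicate 1 (29.1%) or GT replicate 3 (20.8%), 16 without GT replicate 2 (19.2%), 13 without the filter (17.8%) and 1 with all 12 libraries in one fit (4.25%). Over all genes, 233 were called higher and 231 lower, which became 399 and 145 with median-of-ratios scaling and 405 and 162 with quantile normalization. The median log2 fold change was −0.43 over the 34 genes and −0.12 over all genes tested. Every GT library lay below every HFD library for 19 genes, against 24.4% of all genes. The GT mean was under 50% of the HFD mean for 3 genes (Cd68, Ctsk and Lipa) and under 80% for 26, counts again not made over all genes. Without GT replicate 1, 8 genes were called lower, against 5.70% of all genes. The GT and TJ comparisons share the HFD libraries, so they are not independent of each other.

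Between the 2 supplements, 0 of the 34 genes were called higher or lower under TJ than under GT, against 0.139% and 0.00821% of all 12187 genes tested. An unadjusted p-value under 0.05 was reached by 3 (Ctsc, Ctsd and Naglu), against 24.6% of all genes. With 1 library left out this count ran from 1 without GT replicate 1 or 2 (18.7% and 11.9%) to 8 without TJ replicate 3 (35%). It was 7 with quantile normalization (27.1%) and 20 with array weights (69.7%). The median log2 fold change was −0.33 over the 34 genes and −0.03 over all genes, with a range from −0.98 (Lipa) to 0.28 (Cd63). Every TJ library lay below every GT library for 4 genes (Ctsd, Gm2a, Naglu and Scarb2), against 14.9% of all genes. For 23 of the 34 genes the group medians increased in the order ND, TJ, GT and HFD, against 12.2% of the 13935 genes, although none of them was called between the neighbours TJ and GT. For 23 genes every TJ library was above ND replicates 2 and 3, against 21.4% of the 13935 genes.

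The cysteine cathepsins are the main endosomal and lysosomal cysteine proteases. Cathepsin S (Ctss, chr3:95526786-95556403) processes the invariant chain of MHC class II, and cathepsin K (Ctsk, chr3:95499256-95509362) degrades collagen and elastin. Ctss was 5.26, 45.9 and 34.3 FPKM in the ND libraries, 902, 719 and 913 in HFD, 609, 466 and 206 in GT and 605, 106 and 444 in TJ. All HFD values were above all others, and TJ ranged from a level near that of GT down to TJ replicate 2. Its log2 fold change was 5.27 ± 0.79 (SE, n = 3 per group, limma adjusted p = 0.0413) for HFD against ND, 4.37 without ND replicate 1, and −1.45 ± 0.60 (adjusted p = 0.114) for TJ against HFD. Ctsk was 1.12, 13.6 and 11.9 FPKM in ND, 257, 193 and 291 in HFD, 168, 108 and 44.8 in GT and 112, 20.6 and 86.2 in TJ. The HFD and TJ libraries did not overlap, yet the log2 fold change of −2.03 ± 0.59 missed the threshold in limma (adjusted p = 0.0503). For HFD against ND it was 5.05 ± 0.78 (adjusted p = 0.045) and 4.15 without ND replicate 1.

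**Figure D3:**
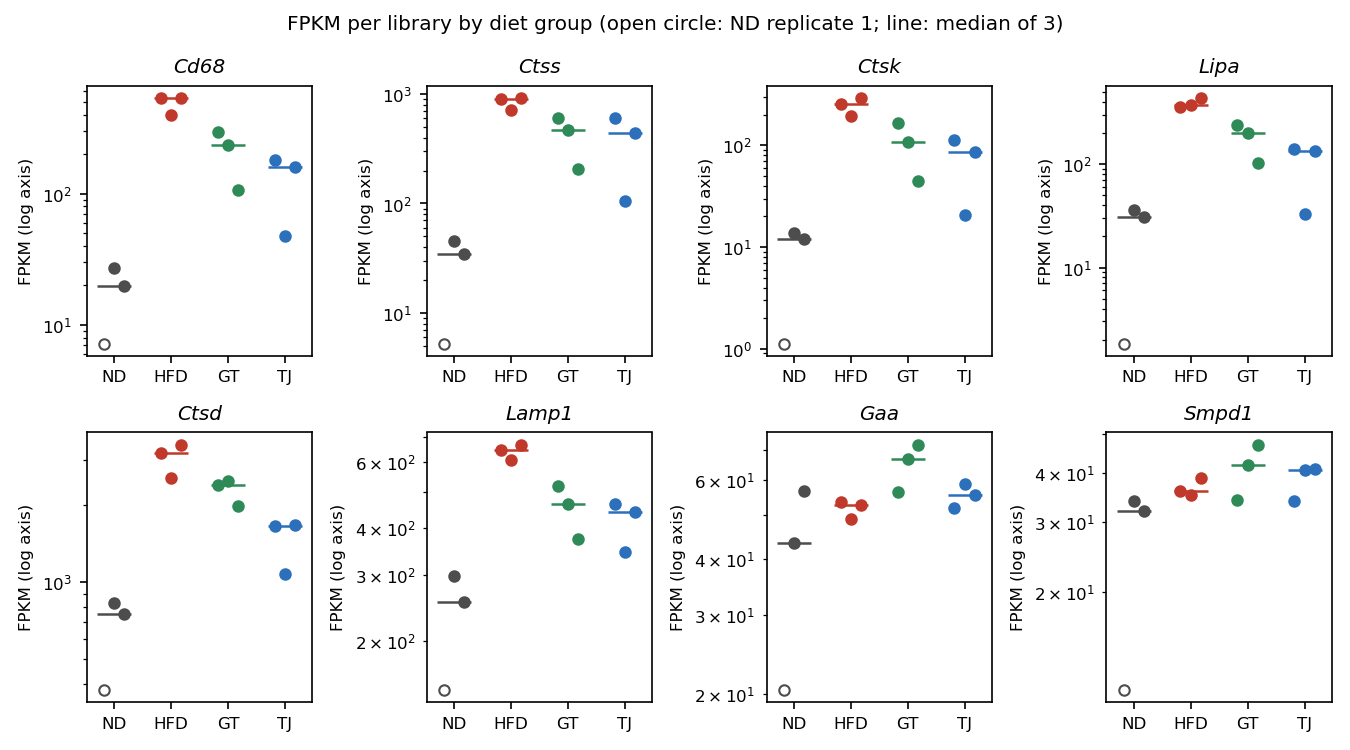
FPKM of 8 of the genes in each library (log axis) by diet group, with a line at the median of each group and an open circle for ND replicate 1. For Cd68, Ctss, Ctsk, Lipa, Ctsd and Lamp1 the 3 HFD libraries lie above all libraries of the other groups, whereas the HFD libraries of Gaa and Smpd1 lie within the range of the others.

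Ctsc and Ctsh, an activator of granule proteases and an aminopeptidase, were the cysteine cathepsins called lower under TJ, although all 7 had negative log2 fold changes and Ctsk, Ctss, Ctsb and Ctsl had larger ones that were not called. Ctsc was 79.9, 85.3 and 87.4 FPKM in HFD and 46.0, 36.8 and 61.5 in TJ, with 74.6, 67.9 and 60.6 in GT and 3.54, 69.5 and 59.6 in ND. Every TJ library was below every HFD library, and TJ replicates 1 and 2 were also below ND replicates 2 and 3, unlike Ctss and Ctsk. Its log2 fold change for TJ against HFD was −0.82 ± 0.20 (limma adjusted p = 0.0357), and that for HFD against ND was 1.66 with and 0.38 without ND replicate 1. Ctsh fell from a mean of 136 ± 12.9 FPKM (SD, n = 3) in HFD to 76.7 ± 13.8 in TJ. The broadly expressed Ctsb, Ctsl and Ctsz were not called, with log2 fold changes of −0.87, −0.96 and −0.56 for TJ against HFD and limma adjusted p-values of 0.0523, 0.0626 and 0.102. Without TJ replicate 2, Ctsb, Ctsk, Ctsl and Ctss passed an adjusted p-value of 0.05 in limma in TJ against HFD. Their log2 fold changes in that fit were −0.62, −1.30, −0.61 and −0.69, smaller in size than with all TJ libraries.

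Of the proteases of other classes, the aspartic protease cathepsin D (Ctsd) and the serine carboxypeptidase cathepsin A (Ctsa), which also protects Neu1 and beta-galactosidase, both fell under TJ. Ctsd was among the most highly expressed of the 34 genes, with 3201, 2561 and 3453 FPKM in HFD, 2396, 2502 and 1984 in GT, 1655, 1078 and 1678 in TJ and 378, 826 and 753 in ND. The 4 groups did not overlap for Ctsd. The mean in TJ was 47.9% of that in HFD, a log2 fold change of −1.08 ± 0.23 (limma adjusted p = 0.0294). Ctsa was 352, 274 and 362 FPKM in HFD, 252, 206 and 138 in GT, 180.0, 116 and 168 in TJ and 24.6, 93.6 and 93.4 in ND, and its log2 fold change for TJ against HFD was −1.10 ± 0.21 (adjusted p = 0.0263). The GT libraries of Ctsa overlapped those of TJ. The tripeptidyl peptidase Tpp1 had 102 ± 11.6 FPKM (SD, n = 3) in HFD and 63.3 ± 18.8 in TJ and was not called.

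Among the membrane proteins, Cd68 is a heavily glycosylated protein of macrophage lysosomes, and Lamp1 and Lamp2 are the major structural glycoproteins of the lysosomal membrane. All 3 fell under TJ. Cd68 was 532, 398 and 532 FPKM in HFD, 293, 233 and 106 in GT, 180.5, 47.9 and 160.1 in TJ and 7.19, 27.0 and 19.9 in ND. HFD lay above all other libraries and ND below all others, whereas GT and TJ overlapped. The log2 fold change of Cd68 was 4.84 ± 0.51 for HFD against ND (limma adjusted p = 0.0208, and 4.32 without ND replicate 1), −2.10 ± 0.48 for TJ against HFD (adjusted p = 0.0333) and −1.31 ± 0.36 for GT against HFD (adjusted p = 0.0772). Without ND replicate 1 the HFD mean was 20.7 times the ND mean. The same ratio was 2.32 for Lamp1 and 1.43 for Lamp2.

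Lamp1 was 647, 606 and 666 FPKM in HFD, 517, 463 and 374 in GT, 464, 344 and 441 in TJ and 148, 298 and 254 in ND. Its groups kept the same order as those of Cd68 with a smaller range, and the log2 fold change for TJ against HFD was −0.63 ± 0.16 (limma adjusted p = 0.0407). Lamp2 was 186, 209 and 235 FPKM in HFD, 162, 168 and 145 in GT, 136, 100.5 and 145 in TJ and 25.5, 148 and 146 in ND. The TJ libraries of Lamp2 lay below those of HFD and below ND replicates 2 and 3. The tetraspanin Cd63, the glucocerebrosidase receptor Scarb2 and the calcium channel Mcoln1 were not called under TJ, with log2 fold changes of −0.37, −0.59 and −0.24. For Cd63 and Mcoln1 the values for GT against HFD, −0.65 and −0.50, were further from 0 than those for TJ, with limma adjusted p-values of 0.132 and 0.115.

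The log2 fold changes of the 8 glycosidases for TJ against HFD were spread from −1.78 (Gla) to 0.09 (Gaa). The alpha-galactosidase Gla, whose loss causes Fabry disease, was 20.7, 21.2 and 27.9 FPKM in HFD, 16.5, 15.2 and 6.19 in GT, 10.9, 2.495 and 7.30 in TJ and 0.595, 1.97 and 1.97 in ND. TJ replicate 2 was close to the ND libraries, and the HFD libraries lay above all others. Its log2 fold change was 3.32 ± 0.37 for HFD against ND (limma adjusted p = 0.0238), 3.02 without ND replicate 1, and −1.78 ± 0.42 for TJ against HFD (adjusted p = 0.0357). The beta-glucuronidase Gusb, which degrades glycosaminoglycans, was 185, 154 and 208 FPKM in HFD, 121, 110.0 and 74.0 in GT, 75.0, 30.0 and 78.4 in TJ and 6.19, 26.3 and 24.4 in ND. Its HFD libraries lay above all others, and its log2 fold change for TJ against HFD was −1.67 ± 0.36 (adjusted p = 0.0305). The beta-galactosidase Glb1 was 35.0, 33.5 and 38.7 FPKM in HFD, 27.4, 30.9 and 26.4 in GT, 23.4, 21.7 and 28.2 in TJ and 17.1, 18.8 and 18.1 in ND. Its groups were ordered as those of Gusb, over a narrower range, and its log2 fold change for TJ against HFD was −0.54 ± 0.14. Hexa, which degrades GM2 ganglioside, and the mannosidase Man2b1 were not called, at −0.77 and −0.82.

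The acid alpha-glucosidase Gaa, which degrades glycogen, had the smallest absolute log2 fold change of the glycosidases under TJ, at 0.09 ± 0.12. Gaa was 53.7, 49.2 and 52.8 FPKM in HFD, 56.6, 67.0 and 71.9 in GT, 51.9, 58.8 and 55.7 in TJ and 20.4, 43.3 and 56.7 in ND. Its 3 GT libraries lay above its 3 HFD libraries, and so did those of Naglu, which acts on heparan sulfate. The log2 fold changes for GT against HFD were 0.32 ± 0.11 for Gaa and 0.24 ± 0.11 for Naglu (limma adjusted p = 0.126 and 0.216), which did not pass the threshold. The sialidase Neu1 differed by −0.12 ± 0.12 between TJ and HFD, a value that turned to 0.01 after median-of-ratios scaling.

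Of the 3 activator proteins, none was called under TJ. Prosaposin (Psap), the precursor of the saposins that present glycolipids to their hydrolases, had the highest mean level of the 34 genes. Psap was 3789.8, 2930.4 and 3969.6 FPKM in HFD, 3278, 3002 and 1785 in GT, 2849.6, 1380.3 and 2304 in TJ and 234, 872 and 846 in ND. The TJ libraries lay below the HFD libraries, with a log2 fold change of −0.76 ± 0.29 (limma adjusted p = 0.0964). Without TJ replicate 2 it was −0.46 (adjusted p = 0.117). Progranulin (Grn), which binds prosaposin, had −0.73 ± 0.22 (adjusted p = 0.0577). The GM2 activator Gm2a was 130.1, 41.4 and 42.2 FPKM in ND, so ND replicate 1 was the highest of the 12 libraries, and its log2 fold change for HFD against ND was 0.41 with and 0.95 without that library.

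Lipa, the acid lipase that hydrolyses cholesteryl esters and triglycerides in the lysosome, had the lowest fold change of the 34 genes under TJ. Lipa was 365, 379 and 439 FPKM in HFD, 243, 199.9 and 102 in GT, 142, 32.9 and 136 in TJ and 1.82, 36.4 and 31.2 in ND. All HFD libraries were above the rest, GT and TJ overlapped, and TJ replicate 2 lay between ND replicates 2 and 3. The log2 fold change was −2.17 ± 0.53 for TJ against HFD (limma adjusted p = 0.0372) and −1.49 without TJ replicate 2. For HFD against ND it was 4.71 ± 1.02 (adjusted p = 0.105) and 3.51 without ND replicate 1 (adjusted p = 0.000707). The acid ceramidase Asah1 was 108, 131 and 127 FPKM in HFD, 112, 95.7 and 69.6 in GT, 69.7, 42.8 and 78.0 in TJ and 3.76, 70.8 and 52.3 in ND, and it fell under TJ by 0.97 ± 0.24 on the log2 scale (adjusted p = 0.0372). The acid sphingomyelinase Smpd1 and the palmitoyl thioesterase Ppt1 were not called in any comparison. Smpd1, with the smallest absolute log2 fold change under TJ of 0.07 ± 0.13, was 35.9, 35.1 and 38.7 FPKM in HFD and 34.02, 40.5 and 40.9 in TJ. Ppt1, with the smallest for HFD against ND of 0.21 ± 0.24, was 53.2, 54.8 and 56.9 FPKM in HFD and 48.7, 46.1 and 47.6 in ND. Without ND replicate 1 the smallest was that of Gaa at 0.06, then Smpd1 at 0.14 and Ppt1 at 0.23.

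Of the 3 transcription factors, Mitf fell under TJ, whereas Tfeb and Tfe3 were not called. Mitf had the lowest mean level of the 34 genes, with 11.8, 12.8 and 16.4 FPKM in HFD, 10.8, 9.38 and 6.02 in GT, 6.38, 3.15 and 7.03 in TJ and 0.392, 6.24 and 5.93 in ND. Its TJ libraries lay below the HFD libraries and on both sides of ND replicates 2 and 3, and its log2 fold change for TJ against HFD was −1.22 ± 0.27 (limma adjusted p = 0.0313). Tfeb was 19.99, 14.9 and 18.01 FPKM in HFD, 19.4, 12.9 and 9.35 in GT, 14.1, 11.8 and 12.3 in TJ and 8.93, 4.63 and 7.34 in ND. Its TJ libraries also lay below its HFD libraries, but the log2 fold change of −0.43 ± 0.15 did not pass (adjusted p = 0.0763). Tfe3 was 30.0, 28.0 and 34.8 FPKM in HFD, 35.3, 30.3 and 26.6 in GT, 29.4, 21.1 and 23.5 in TJ and 6.43, 16.4 and 25.0 in ND, and its HFD libraries overlapped those of both GT and TJ. These factors are controlled largely by their location in the cell, which RNA levels do not show.

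Other genes of the lysosome were taken from lists written from general knowledge. Their counts under TJ stand beside 11.1% of all genes called lower and 7.41% called higher. Of 25 other lysosomal membrane proteins tested, 12 were significantly lower and 0 higher under TJ in limma (median log2 fold change −0.73), among them the cholesterol transporter Npc1 and the chloride transporter Clcn7. The lowest was the histidine and peptide transporter Slc15a3 at −2.13 and the highest was Abcb9 at 0.49, which was not called. Of 34 other lysosomal hydrolases, 8 were lower, 1 was higher and the median was −0.38. The gene that rose was Acp5, the tartrate-resistant acid phosphatase, with 148, 137 and 161 FPKM in HFD, 202, 239 and 248 in GT and 286, 375 and 261 in TJ, and the lowest was Pld3 at −1.34 (adjusted p = 0.0502). Acp5 was thus opposite in direction to the called members of the hydrolase list.

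The V-ATPase pumps protons into the lysosome. Of its 21 tested subunits and partners, 5 were lower and 1 was higher under TJ in limma, and the median log2 fold change was −0.35. Beside this and the counts under TJ that follow, 11.1% of all genes were lower and 7.41% higher. The subunit Atp6v0d2, known from osteoclasts and macrophages, was 165, 164 and 196 FPKM in HFD, 120.1, 91.9 and 35.6 in GT, 72, 3.30 and 59.0 in TJ and 2.04, 1.42 and 1.16 in ND. It rose in HFD against ND (6.13, adjusted p = 0.00488, and 6.26 without ND replicate 1), and the value of −2.72 for TJ against HFD was not called (adjusted p = 0.0881), with TJ replicate 2 far below the other TJ libraries. Atp6v0e2 was the subunit that rose under TJ, by 1.27, and under GT, by 0.94. Of 17 genes that sort enzymes to the lysosome 3 were lower (Ap1b1, Ap1g1 and Igf2r), with Ap1g1 lowest at −1.26 and Gnptg highest at 0.12. Of 18 genes of nutrient sensing at the lysosome 5 were lower, from Fnip2 at −1.90 to Lamtor2 at 0.67, which was not called. Of 33 autophagy genes 2 were lower and 2 higher, with Map1lc3a highest at 1.09 and Vps18 lowest at −0.65. Of 3 tested cathepsin inhibitors none was called under TJ, with Cst3 at 0.60 and Cstb at −0.68, although Cstb rose in HFD against ND by 2.78 (adjusted p = 0.022), or 2.71 without ND replicate 1.

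For HFD against ND, 3 V-ATPase genes, 1 other hydrolase (Lgmn, which activates cathepsins), 3 other membrane proteins and 1 nutrient sensing gene (Fnip2) were significantly higher in limma, and 0 sorting and 0 autophagy genes, against 1.73% of all genes. Without ND replicate 1 the higher genes numbered 13 of the V-ATPase, 19 other hydrolases, 12 other membrane proteins, 5 of nutrient sensing, 5 of sorting and 3 of autophagy, against 11.0% of all genes. Atp6v0e2, Laptm4b and Optn were lower in that fit, against 4.34% of all genes. For GT against HFD, the called genes of these lists included Atp6v0e2, Acp5 and Optn, which were higher, and Rnaset2b, which was lower.

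Markers of other cells moved with these groups. Of 20 macrophage markers 13 were significantly lower in TJ than in HFD and 0 were higher, against 11.1% and 7.41% of all genes, and the median was −1.33 on the log2 scale. The 13 became 0 without the filter (0.145% of all genes called lower) and with all 12 libraries in one fit (0 of all genes). It was also 0 without any one HFD library or TJ replicate 1 (0 of all genes). In the other direction, 10 were higher in HFD than in ND (1.73% of all genes), or 17 without ND replicate 1 (11.0%), 2 and 1 without ND replicates 2 and 3 (0.165% and 0.161%), and 0 with the replicate block or without any one HFD library. In GT against HFD 1 was lower (Clec4d), against 1.81% of all genes, 16 had an unadjusted p-value under 0.05, against 29.3%, and the median was −0.91. The count of 16 was 8 without HFD replicate 1 and 7 without HFD replicate 3, against 29.1% and 20.8% of all genes. The sum of 19 of them, leaving out Aif1 (which was 1355 FPKM in ND replicate 1), was 4693 to 6522 FPKM in HFD, 1803 to 4245 in GT, 1172 to 3187 in TJ, 681 and 816 in ND replicates 2 and 3 and 218 in ND replicate 1. Clec4d was the only one of them listed at 0, in ND replicate 1. The defining markers Adgre1 and Itgax were lower in TJ (−2.51 and −2.41), and Trem2 at −2.09 was not called (adjusted p = 0.0713). Under TJ the macrophage list ran from Gpnmb at −3.18 (limma adjusted p = 0.0629) to Cd163 at −0.19 (adjusted p = 0.493), neither called. Cd163 stood at 0.31 in GT against HFD and at −0.55 in HFD against ND without ND replicate 1, also not called. Adgre1 was 213, 195 and 259 FPKM in HFD, 136, 125 and 57.4 in GT, 65.6, 11.9 and 68.0 in TJ and 0.651, 16.0 and 14.3 in ND. The part of these markers in the results for the 34 genes was not tested.

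Of the 17 adipocyte markers, 9 were significantly higher and 0 lower in TJ than in HFD, and 12 were positive and 5 negative with a median of 0.70, against 7.41% and 11.1% of all genes. In GT against HFD 4 were higher, against 1.83% of all genes, with a median of 0.62. In HFD against ND 0 were called and the median was 0.33, but without ND replicate 1, 8 were lower and 2 higher, against 4.34% and 11.0% of all genes, and the median was −0.88. They summed to 23831 to 25132 FPKM in HFD, 30339 to 36698 in GT and 35953 to 64311 in TJ. Adipoq, the adiponectin gene, was 1027, 1037 and 908 FPKM in HFD and 2410.0, 3738 and 2253 in TJ, and it rose by 1.46 on the log2 scale, while the lipid droplet gene Plin1 rose by 0.79. The list ran from the leptin gene Lep at −0.96, which was not called (limma adjusted p = 0.111), to the beta-adrenergic receptor gene Adrb3 at 2.51. Of 11 progenitor markers 6 were lower and 0 higher in TJ, 4 were lower in GT (1.81% of all genes), and 0 were higher in HFD than in ND, or 7 without ND replicate 1 (11.0%). In TJ against HFD, 0 adipocyte and 0 progenitor markers were called without the filter or with all 12 libraries in one fit. The same held without any one HFD library or TJ replicate 1. These fits called at most 0.166% of all genes in either direction. Without GT replicate 1, 9 adipocyte markers were higher (2.92% of all genes) and 6 progenitor and 7 macrophage markers lower (5.70%) in GT than in HFD. With the replicate block or any other library left out, 0 genes of the 3 lists were called in that comparison, apart from 1 progenitor marker without HFD replicate 1. In TJ against HFD, of 9 endothelial markers 4 were higher, and of 5 tested lymphocyte markers 1 was higher (Nkg7). Of 9 mitochondrial DNA genes 4 were higher, of 6 mesothelial markers 1 was lower (Wt1), and of the dendritic and neutrophil, epididymis and germ cell markers tested 0 were called. Their part in the results was not tested either.

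The 34 genes summed to 13457 to 17484 FPKM in HFD, 8164 to 13130 in GT, 5924 to 10632 in TJ and 4061 to 4365 in ND replicates 2 and 3, with 1916 in ND replicate 1. The 9 cathepsins did not keep a fixed ratio to the macrophage markers. The cathepsin sum was 1.33 to 1.44 times the sum of the 19 macrophage markers in HFD, 1.53 to 2.34 times in GT, 1.55 to 2.28 times in TJ and 2.46 and 2.61 times in ND replicates 2 and 3. The library with the lowest macrophage sum within GT (replicate 3) and within TJ (replicate 2) had the highest ratio of its group. TJ replicate 2 was the lowest TJ library for 29 of the 34 genes, against 48.1% of all 13935 genes, and held the highest adipocyte sum of the 12 libraries. GT replicate 3 was the lowest GT library for 31 of the 34 genes, against 47.0% of all genes, and held the highest adipocyte sum of its group.

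**Figure D4:**
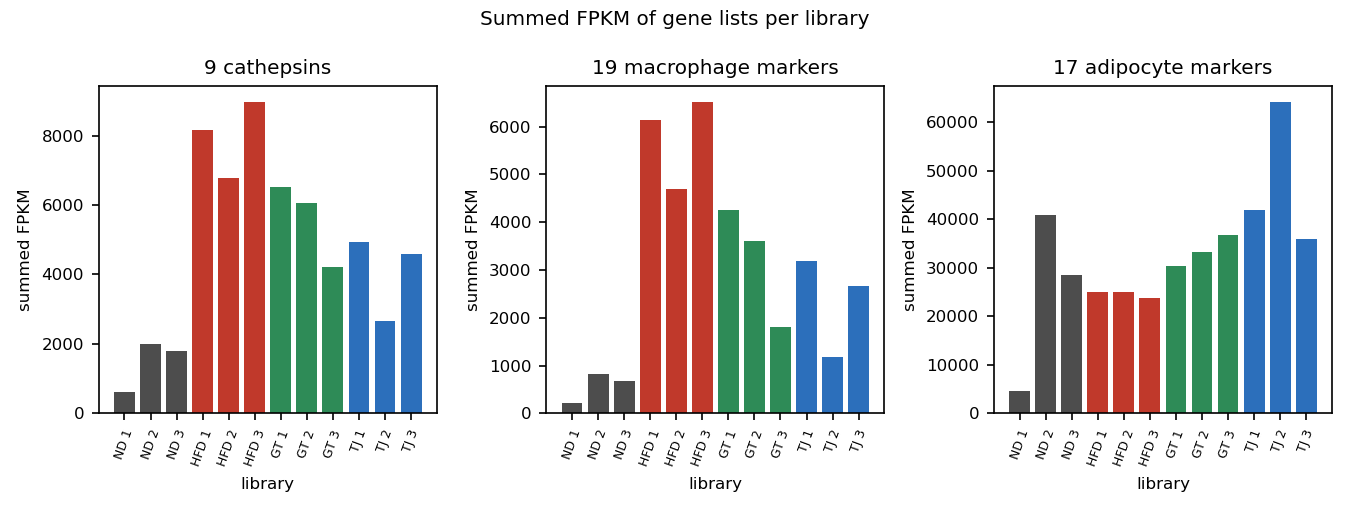
Summed FPKM (vertical axes, from 0) of the 9 cathepsins, 19 macrophage markers and 17 adipocyte markers in each of the 12 libraries, coloured by diet group. Cathepsin sums run from 6766 to 8977 in HFD and from 2670 to 4947 in TJ, and within GT and TJ the libraries with the lowest cathepsin and macrophage sums are those with the highest adipocyte sums.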

How the data were processed

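The authors deposited FPKM values per gene, computed with Cufflinks (2.1.1 in the submitters' processing notes, which also name STAR 2.4.0 and CASAVA 1.8.2) masking noncoding regions and correcting for multireads and fragment bias. The human genome is named in their methods, but every identifier is a mouse Ensembl one. Symbols and coordinates (GRCm38) came from GENCODE, which named 22671 of 23474 genes. The steps of low FPKM values put the depth at very roughly 11000000 (ND replicate 1) to 22000000 fragments (GT replicate 1). FPKM carry no counts, so the precision of a fold change is taken from the spread between mice within both groups of its comparison. That spread is pooled and moderated over all genes, and p-values set the group difference against it.

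Each of 4 comparisons used its own 6 libraries and the genes that averaged 1 FPKM or more over them, fitted on log2(FPKM + 1) without covariates (limma 3.58.1, R 4.3.3, eBayes moderated along the mean-variance trend). P-values are two-sided and were adjusted over all genes tested. The pseudocount of 1 understates the fold changes of low genes. An exact permutation test of 3 libraries against 3 cannot go below 0.1, and it reached 0.1 for 32, 27, 21 and 4 of the 34 genes in HFD against ND, TJ against HFD, GT against HFD and TJ against GT. No libraries held identical values, and the fit was tested on simulated data.

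The 34 genes, the lists and the tests were chosen with earlier results of these data known. Values in every library were to be given for called genes, up to 3 per role with the largest fold changes, the transcription factors and the genes with the highest and lowest levels and smallest fold changes, plus the extremes of each other list under TJ. Library values of Gaa and Gm2a, and the names of called genes in short counts such as Lgmn, Npc1 and Clcn7, were added after their values were seen. Exons of 8 of the 34 genes overlap those of another measured gene (Ctsa, Ctsb, Ctsz, Glb1, Grn, Hexa, Lamp1 and Ppt1), and whether strand was used is not given in the sources used here.

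Deviations from the group means correlated over genes by 0.55, 0.34 and 0.12 for libraries of equal number in HFD and ND. HFD replicate 3 and ND replicate 2 reached 0.63, and nothing shared by a number is named. The reported fit therefore has no pairs, and a replicate block was fitted only as an alternative. Alternatives changed the pseudocount (0.1, 0.01), the filter (none, or an average of 5 FPKM), the scaling (median of ratios, quantile), the model (all 12 libraries, a replicate block, array weights, no trend) or the fold change minimum, or left out 1 library.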

Additional observations from a re-analysis of the deposited data

How the results depend on the processing

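In the 3 comparisons with HFD, each of the 34 genes kept its direction under all alternatives except Gaa in HFD against ND (−0.10 with array weights), Neu1 in TJ against HFD (0.014 with median-of-ratios scaling) and Tfe3 in GT against HFD (0.11 with median-of-ratios scaling, 0.093 with quantile normalization, and −0.11 to 0.082 with 1 library left out, above 0 without HFD replicate 3 at 0.072 and without GT replicate 3). The number of genes called higher in HFD against ND, 4 as reported, was 2 with a pseudocount of 0.1 or 0.01, 22 with all 12 libraries in one fit, 26 with array weights and 0 with the replicate block, in fits that called 0.839%, 0.735%, 7.12%, 14.7% and 0 of all genes higher. It ran from 0 to 25 with 1 library left out, with 25 for ND replicate 1 and 0 for each of the other 5. The number called lower in TJ against HFD, 12 as reported, was 0 without the filter, which tests 23474 genes and called 0.145% of them lower. It was 21 with quantile normalization (8.99% of all genes). With all 12 libraries in one fit, in which the spread of ND replicate 1 enters, it was 0, and 0 of all genes were called lower. It ran from 0 to 19 with 1 library left out: 14 without TJ replicate 2 (9.53% of all genes), 19 without TJ replicate 3 (16.8%) and 0 otherwise (0 of all genes). The number called lower in GT against HFD, 0 as reported, was 2 with a mean of at least 5 FPKM, 3 with quantile normalization, 7 with array weights (3.13%, 1.27% and 8.37% of all genes) and from 0 to 8 with 1 library left out. In TJ against GT it was 0 throughout. The cause of these changes was not tested further. With 1 library left out, the median log2 fold change ran from 1.37 to 2.19 in HFD against ND, −0.85 to −0.52 in TJ against HFD, −0.61 to −0.30 in GT against HFD and −0.53 to −0.14 in TJ against GT. Libraries of equal number in TJ and HFD had correlations of −0.03, −0.05 and 0.23. A block left 9 called lower in TJ against HFD (6% of all genes). It left 0 in GT against HFD and 0 in TJ against GT (0.0313% and 0.00821% of all genes). Scaling by median of ratios moved the median of all genes by −0.14 in HFD against ND and 0.12 in both TJ and GT against HFD. Relative to the median of all genes, the 34 genes lay at −0.30 in TJ against GT as reported and at −0.48 with quantile normalization.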

Other observations

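The ribonuclease gene Rnaset2b, one of the other lysosomal hydrolases, had the lowest log2 fold change of that list in GT against HFD (−2.80 ± 0.13, limma adjusted p = 0.000935) and was chosen after its values were seen. It was 9.96, 8.72 and 9.69 FPKM in HFD and 9.03, 8.42 and 8.77 in TJ, but 0.577, 0.538 and 0.398 in GT and 6.98, 0.443 and 0.475 in ND. The 3 GT libraries and ND replicates 2 and 3 were thus near 0.5 FPKM, and the HFD and TJ libraries and ND replicate 1 were above 6 FPKM. A near-identical copy, Rnaset2a, exists in the mouse genome, so the assignment of reads to either copy is uncertain.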
